A study of Mus musculus with 2 samples.

Results

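Paneth cells were described here as 69 cell barcodes out of 5568 barcodes within common quality limits, and out of 11248 barcodes in the whole library. The members were chosen by 3 conditions on the unfiltered counts: at least 1000 unique transcript counts (UMIs) of genes, at most 20% of them mitochondrial, and at least 10% of them from 7 genes. These 7 genes, called the rule genes below, were Lyz1, Defa17, Defa21, Defa22, Defa24, Defa26 and Defa30. The other 5499 barcodes within the same UMI and mitochondrial limits formed the comparison group. Of the 69 Paneth barcodes, 31 were left out of the count table in which the authors kept 2335 barcodes, and 38 were in it. The library held crypt epithelium of the small intestine from an animal with a tamoxifen-inducible Cre and tdTomato at Chga and a Cre-dependent eYFP reporter at Rosa26, given 5 daily injections of 1 mg tamoxifen. Recombination by this driver starts in cells that express Chga, a granule protein gene of enteroendocrine cells, and eYFP then passes to their descendants. The eYFP-positive and the bulk fractions carried hashtag antibodies and were run together in 1 library, so that Paneth and other barcodes share genotype, treatment and library. The sources used here do not say which hashtags belong to which sort.

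Paneth cells sit at the base of small-intestinal crypts between the stem cells and fill apical granules with antimicrobial peptides. Alpha-defensins are made as inactive precursors, which the metalloproteinase Mmp7 cleaves in mice, and lysozyme cuts the peptidoglycan of bacterial walls. Paneth cells are also known for supplying Wnt3, EGF and Notch ligands to the neighbouring stem cells.

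The mouse alpha-defensin genes lie together as near-copies on chromosome 8. The upstream sequences of 3 of them are shown because the genes differ widely in level while their upstream sequences partly align. They are the 250 bases before the annotated start in RefSeq, GRCm38.p6, written 5′ to 3′, with TATAAA and CTTTGA (or its reverse, TCAAAG) in capitals. The first is a core promoter element and the second the core recognised by TCF/LEF factors of the Wnt pathway.
Defa30, chr8:21134400-21134649, plus strand: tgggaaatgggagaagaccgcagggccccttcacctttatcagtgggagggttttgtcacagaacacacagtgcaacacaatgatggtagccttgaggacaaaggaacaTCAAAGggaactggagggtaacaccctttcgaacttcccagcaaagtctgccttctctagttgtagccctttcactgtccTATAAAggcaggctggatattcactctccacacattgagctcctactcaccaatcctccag
Defa22, chr8:21162027-21162276, plus strand: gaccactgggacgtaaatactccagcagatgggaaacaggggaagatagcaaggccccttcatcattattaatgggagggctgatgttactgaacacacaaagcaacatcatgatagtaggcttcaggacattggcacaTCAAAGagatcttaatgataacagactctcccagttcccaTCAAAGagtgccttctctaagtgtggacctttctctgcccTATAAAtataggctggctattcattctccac
Defa38, chr8:21096051-21096300, minus strand: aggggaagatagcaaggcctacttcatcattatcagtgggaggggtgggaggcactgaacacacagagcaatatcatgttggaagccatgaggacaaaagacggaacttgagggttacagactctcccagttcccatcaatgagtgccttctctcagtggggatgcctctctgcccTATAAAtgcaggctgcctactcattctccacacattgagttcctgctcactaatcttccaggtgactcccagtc

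The Defa22 and Defa38 windows were identical at 174 of 200 aligned bases, Defa30 and Defa22 at 173 of 220, and Defa30 and Defa38 at 186 of 230. Gap bases in these alignments numbered 100, 60 and 40. TATAAA stood at -31 in Defa22, -61 in Defa30 and -74 in Defa38 from the annotated start, so the windows are not matched in position. The Lyz1 window, from chromosome 10, matched those of Defa30, Defa22 and Defa38 at 70.4% to 71.4% of aligned bases, the single gene outside the family that was aligned. TATAAA on either strand was present in 15 of 16 Defa windows in the RefSeq table and in 12.4% of 32851 windows of all genes. CTTTGA or its reverse was present in 13 of 16 Defa windows and in 13.8% of all windows. These matches describe letters only. Defa38 is the RefSeq name of the model listed in the files as Gm14851. Windows for Defa17, Defa24 and Defa26 were not used here.

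The 69 Paneth barcodes held 1946553 gene UMIs and the 5499 others 69423517. A Paneth barcode held 1009 to 113382 UMIs with a median of 9017, against 1000 to 129719 with a median of 5517 in the others. Both groups come from 1 library without replicates, so no test was made. Intervals are 95%, exact Poisson for sums and Clopper-Pearson for shares, and cover counting error only. The labels name 1 mouse, but 35 Paneth barcodes had Xist (3 UMIs or more) without any Y-linked UMI, while 8 had Y-linked UMIs (Ddx3y, Eif2s3y, Uty, Kdm5d) and at most 2 Xist UMIs. The barcodes therefore go against a single animal of 1 sex, and animals could not be separated.

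The defining genes themselves are a description, since they chose the members. Their summed share ran from 11.7% to 64.0% of gene UMIs in Paneth barcodes with a median of 38.0%, against 0 to 9.80% with a median of 0.153% in the others. The distribution was thin around the limit. The lowest members stood at 11.7% and 12.1%, and the 5 others with 8% or more stood at 8.08%, 8.25%, 9.08%, 9.37% and 9.80%. All 5 of these nearest others were outside the authors' table, and each held 21 to 61 UMIs of Itln1, the lectin described below.

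**Figure D1:**
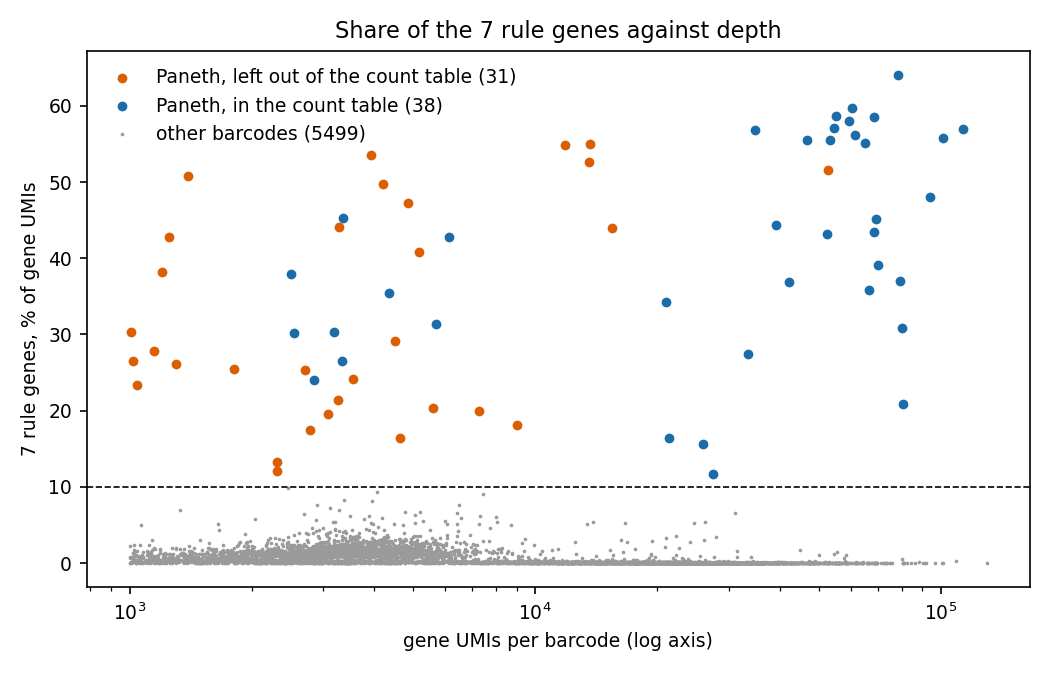
Gene UMIs per barcode (log axis) against the percentage of gene UMIs from the 7 rule genes, with the limit of 10% dashed. The 31 Paneth barcodes left out of the count table (orange) lie mostly under 20000 UMIs, the 38 in it (blue) on both sides, and the 5499 other barcodes (grey) lie below 10% by the rule.

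Among the defensins, the levels spanned several orders of magnitude. Defa24, the most abundant, made up 9.23% of the gene UMIs of the lowest Paneth barcode, 23.6% at the median and 42.4% of the highest, and its summed share was 27.37% (27.3% to 27.45%) in Paneth barcodes against 0.167% in the others. Defa30 followed with 14.4% of Paneth UMIs, and its share of a single barcode ran from 0.0434% to 25.4% with a median of 10.3%. Lysozyme 1 (Lyz1) made up 3.19%, with a median of 2.70% and a highest value of 8.60%, and was at 0 UMIs in 2 of 69 members. The remaining rule genes were small: Defa17 gave 0.391%, Defa26 0.209%, Defa21 0.195% and Defa22 0.114%. Defa30 thus had 126.5 times the UMIs of Defa22.

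Members of the family that the rule did not use were abundant as well. Defa38 (Gm14851) made up 5.93% of Paneth UMIs against 0.0254% of the others' and was found in 66 of 69 members. The unnamed model AY761184 made up 7.39% against 0.0276%, found in 68 members, and the files and RefSeq table give it no defensin name. Defa29 reached 1.74% against 0.00743% and Defa36 1.002% against 0.004% of gene UMIs. Defa23, Defa3 and Defa5 had 5418, 3029 and 1115 UMIs in the members, and the models Gm15293 (RefSeq Defa41), Gm7861 (Defa43) and Gm15292 (Defa40) had 3248, 2155 and 1576. Defa34 and Defa27 had 433 and 364 UMIs, and Gm7849 (Defa42), Defa28 and Defa35 had 65 to 69. Defa20, Defa32, Defa25 and Defa37 had 1 to 5. Defa2, Defa31 and Defa33 were at 0 of 1946553 UMIs. In all, 24 of 27 listed family members were detected, and 17 had over 100 UMIs. Together with Lyz1 and AY761184 the family took 62.8% of Paneth UMIs, 11.8% in the lowest barcode, 51.9% at the median and 83.5% in the highest, against 0.329% in the others. Near-identical copies can exchange reads in counting, so levels of single copies are uncertain.

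**Figure D2:**
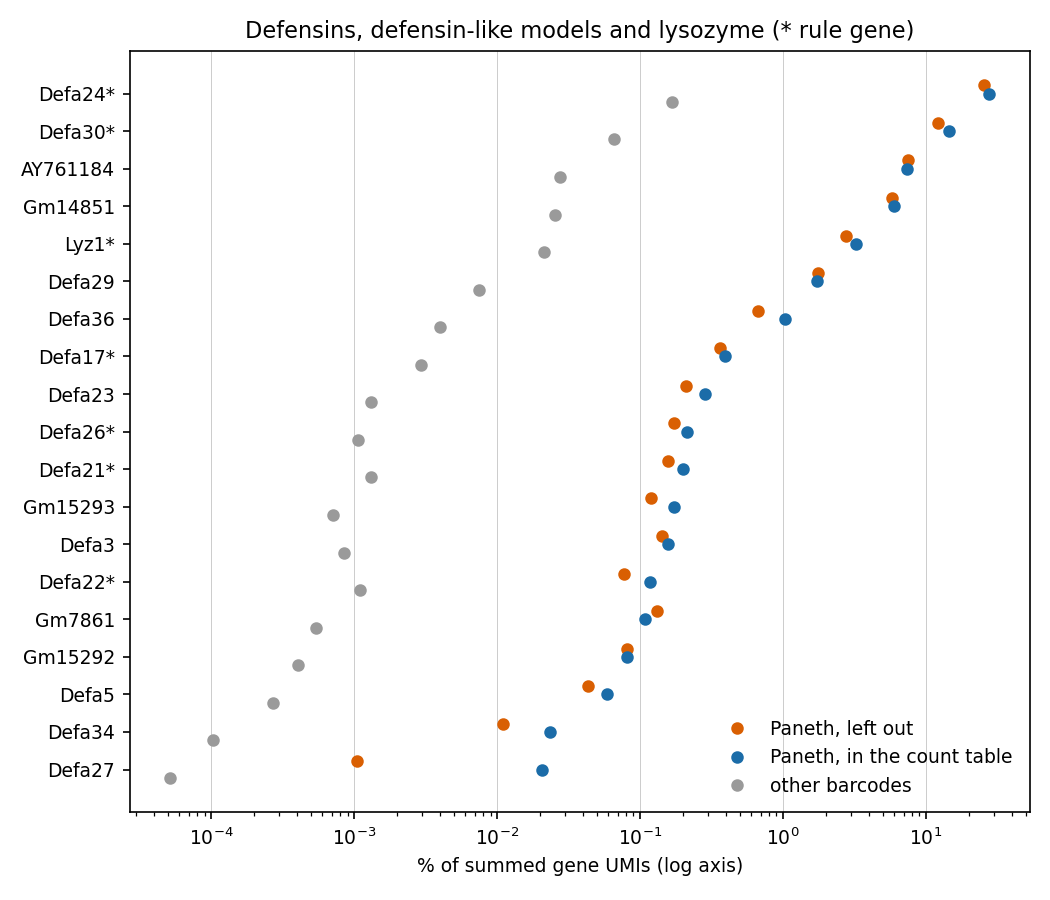
Percentage of summed gene UMIs (log axis) for each family member with over 100 UMIs in Paneth barcodes, Lyz1 and AY761184, with rule genes starred. The sums of Paneth barcodes left out of the count table (orange) and in it (blue) lie close together for most genes. Defa24 is at 25.6% and 27.6%, and the other barcodes (grey) lie far below both. Medians per barcode, not drawn, lay further apart, at 17.3% and 24.7% for Defa24 and 7.92% and 12.5% for Defa30.

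Defensin UMIs were also found in barcodes of a cell type not known to make them. Defa24 was found in 100% of Paneth barcodes (median depth 9017 UMIs) and in 96.8% of 93 B lymphocyte barcodes (median depth 2677 UMIs), which were defined by at least 3 UMIs summed over Cd79a, Cd79b and Ms4a1. After thinning every barcode to 1000 UMIs, Defa24 was found in 100% of Paneth barcodes and 78.5% of B lymphocyte barcodes, and Lyz1 in 97.1% and 10.8%. Mmp7 was found in 85.5% of thinned Paneth barcodes (74.96% to 92.8%), against 2.15% of B lymphocyte barcodes (0.262% to 7.55%). Mptx2 was found in 84.1% against 3.23%, and Itln1 in 100% against 22.6%. Without thinning, the Paneth shares of Mmp7, Mptx2 and Itln1 were 97.1%, 89.9% and 100%, against 9.68%, 14.0% and 41.9% of B lymphocyte barcodes. Per 100 Defa24 UMIs, Paneth barcodes held 52.5 of Defa30 and 11.7 of Lyz1, against 50.5 and 9.94 in B lymphocyte barcodes. The B lymphocyte shares give the level in that cell type only. Thinned shares of Defa24, Lyz1, Itln1, Mptx2 and Mmp7 were 63.0%, 28.5%, 30.3%, 11.5% and 5.69% in all other barcodes. In the others left out of the authors' table they were 78.1%, 42.7%, 44.4%, 17.9% and 7.5%. The source of these UMIs outside Paneth barcodes was not tested.

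Outside the rule genes, levels are given as CPM, counts per 1000000 UMIs that are not from the rule genes, and differences as log2 ratios with 10 CPM added to both levels. Of 12843 genes with at least 50 UMIs, 153 were at least 2-fold higher in Paneth barcodes (1.19% of those tested) and 1574 at least 2-fold lower (12.3%). The median ratio of all tested genes was -0.42, and relative to that median 330 genes were higher (2.57%) and 363 lower (2.83%). On the base of all gene UMIs, rule genes included, 69 genes were higher (0.537%) and 4812 lower (37.5%). The rule used this contrast, so these counts are a description. Of the markers that go with the name and are not rule genes, Itln1, Mptx2 and Mmp7 were found in 69, 62 and 67 of the 69 members and took the ranks after Clps among named genes.

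Among secreted antimicrobial proteins and lectins other than defensins, 8 of 22 tested genes were at least 2-fold higher in Paneth barcodes and 4 at least 2-fold lower. Their median ratio was -0.11. Of all tested genes, 1.19% were higher and 12.3% lower. Relative to the median of all genes 9 of the 22 were higher and 1 lower, and on the base of all gene UMIs 7 and 5. Itln1 (intelectin 1, a lectin that binds microbial sugars; ENSMUSG00000038209) had 8031 CPM in the lowest Paneth barcode, 47100 at the median and 150137 in the highest, against a median of 92.9 and a highest value of 15329 in the others. No other barcode reached the Paneth median, although the ranges overlapped. Its summed level was 57376 CPM (56920 to 57835) in Paneth barcodes and 263 CPM in the others, a log2 ratio of 7.72. Mptx2, a secreted pentraxin, ran from 0 to 56811 CPM with a median of 7684 in Paneth barcodes and reached 8191 in the others, where 1 of 5499 barcodes stood at or above that median. It was at 0 in 7 of 69 Paneth barcodes, and its log2 ratio was 7.44. Ang4, an angiogenin with antibacterial activity, had a Paneth median of 9907 CPM against 0 in the others, with a log2 ratio of 6.36 and 4 others at or above the Paneth median.

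Further members of that list were less abundant. Nupr1, a stress-response chromatin protein, had 1021 against 20.1 CPM and Pglyrp1, a peptidoglycan recognition protein, 1071 against 222 CPM. Retnlb, a resistin-like molecule of goblet cells, averaged 374 against 21.7 CPM, but was found in 9 of 69 Paneth barcodes with a highest value of 14903 CPM. Reg3g, a lectin against Gram-positive bacteria, differed little, with 1346 against 983 CPM and a log2 ratio of 0.45. Its relative Reg3b was lower in Paneth barcodes, at 648 against 1480 CPM, as was Dmbt1, a mucosal scavenger protein, at 142 against 1034 CPM.

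Of 17 proteases and inhibitors of the secretory pathway, 4 were at least 2-fold higher and 3 lower, against 1.19% and 12.3% of all tested genes. Relative to the median of all genes 5 were higher and 2 lower, and on the base of all gene UMIs 4 and 4. Mmp7 (ENSMUSG00000018623), the defensin-activating protease in mice, had 4005 CPM at the median and 10929 in the highest Paneth barcode, against a median of 0 and a highest value of 4114 in the others. It was at 0 in 2 Paneth barcodes, and the log2 ratio was 6.40. Spink4, a Kazal-type protease inhibitor also known from goblet cells, was found in all 69 members and ran from 2818 to 124006 CPM, with a log2 ratio of 4.55. Here 99 other barcodes stood at or above the Paneth median of 16194 CPM. Habp2, a serine protease, had 157 against 1.85 CPM, and Klk1, a kallikrein, 229 against 56.2 CPM.

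The highest ratio of all named genes belonged to Clps (colipase, the cofactor of pancreatic lipase; ENSMUSG00000024225). It had 5232 CPM at the median and 24807 in the highest Paneth barcode, against 0 and 3829 in the others, with a log2 ratio of 7.78. No other barcode reached the Paneth median, and 2 members were at 0. Pnliprp2, a lipase related to pancreatic lipase, had 1057 against 6.18 CPM. The chemokines Ccl6 (2353 against 79.9 CPM) and Ccl9 (261 against 32.7 CPM), the guanylate cyclase ligand Guca2b (1735 against 68.0 CPM) and the ribonuclease Rnase1 (1621 against 66.3 CPM) were also among the 20 highest. So were Thbs1 (thrombospondin 1, 293 against 7.87 CPM), Ramp1 (a receptor activity-modifying protein, 224 against 10.6 CPM), Bambi (a decoy receptor of the TGF-beta family, 153 against 6.14 CPM) and Lgmn (the endopeptidase legumain, 110 against 10.1 CPM). Tmed6 and Reep5, proteins of the early secretory pathway, had ratios of 3.27 and 2.52, and Fam46c, a poly(A) polymerase, 3.09.

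**Figure D3:**
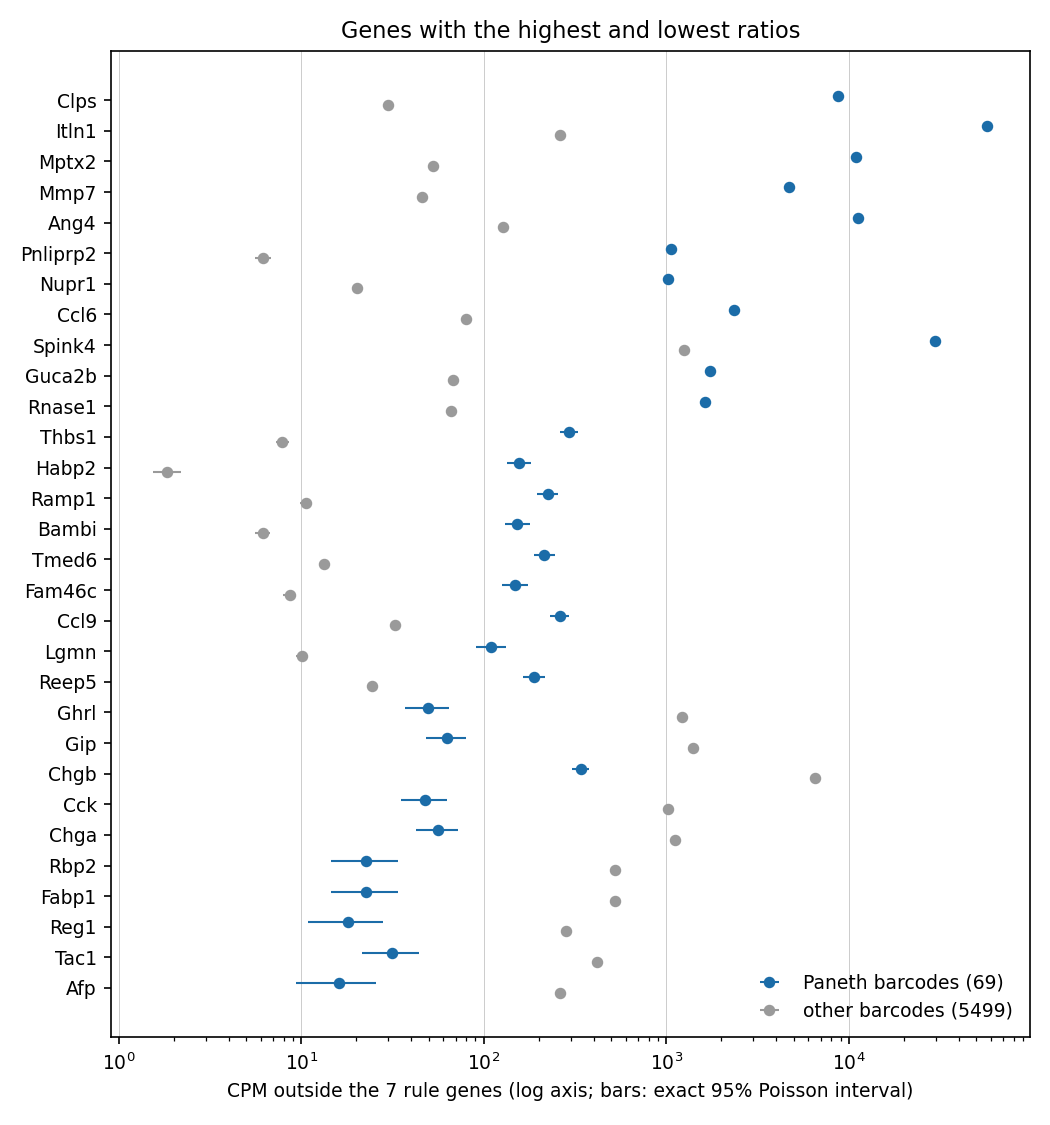
Levels in CPM outside the rule genes (log axis) of the 20 genes with the highest and the 10 with the lowest ratios, in 69 Paneth barcodes (blue) and 5499 others (grey), with exact 95% Poisson intervals. Itln1 stands at 57376 against 263 CPM and Ghrl at 49.3 against 1220 CPM.

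Niche ligands were scarce. Of 17 listed, 12 could be tested, of which Wnt3 was at least 2-fold higher and Kitl, Hbegf and Areg at least 2-fold lower. Of all tested genes, 1.19% were higher and 12.3% lower. Relative to the median of all genes, 3 ligands were higher and 1 lower, where 2.57% and 2.83% of all tested genes were. Wnt3 was found in 24 of 69 Paneth barcodes, with 66.4 against 8.43 CPM and a log2 ratio of 2.05. The Notch ligand Dll4 had 19.9 against 9.78 CPM and was found in 14 members, and the Notch ligand Dll1 had 11.4 against 20.1 CPM. Egf rested on 9 UMIs in 7 members (8.54 against 0.823 CPM). Wnt6, Wnt9b, Wnt11, Ereg, Jag2, Bmp4 and Rspo1 were at 0 UMIs in the members. Among 17 tested receptors and surface proteins of the crypt base, Cd24a, a surface protein used to sort Paneth cells, had 886 against 248 CPM. The guidance receptor Ephb3 (65.4 against 22.2 CPM) and the receptor kinase Kit (40.8 against 11.8 CPM) were higher, and the Wnt receptor Fzd5 was lower (14.2 against 59.5 CPM). On the base of all gene UMIs, 0 of the 17 were 2-fold higher and 8 lower, where 0.537% and 37.5% of all tested genes were.

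Of 26 secretory transcription factors, 6 were at least 2-fold higher and 4 lower. On the base of all gene UMIs 2 were higher and 9 lower, where 37.5% of all tested genes were lower. Relative to the median of all genes 8 were higher and 0 lower, where 2.57% and 2.83% of all tested genes were. The highest ratio was that of Bhlha15 (Mist1, a factor of granule-bearing secretory cells), at 43.6 against 2.31 CPM, found in 26 members. Spdef (56.0 against 10.5 CPM) and Atoh1 (47.4 against 10.9 CPM), which specify secretory lineages, were higher. Hnf4a and Klf5, factors of the absorptive and proliferating epithelium, had ratios of -1.32 and -1.05, or -1.29 and -0.52 with each barcode weighted equally. Sox9, which Paneth cells require in mice, had 227 against 166 CPM and a ratio of 0.43. In the endoplasmic reticulum folding list, 4 of 30 genes were at least 2-fold higher, led by Ern2 (an epithelial stress sensor, 72.1 against 12.3 CPM), and Atf6 was lower (18.0 against 76.2 CPM). The chaperone Hspa5 stood at 517 against 520.2 CPM. In the translocation and vesicle traffic list 7 of 40 were higher and 0 lower, with a median ratio of 0.18. Of all tested genes, 1.19% were higher and 12.3% lower. On the base of all gene UMIs, 1 folding gene was higher and 8 lower, and 1 traffic gene was higher and 12 lower. Of all tested genes, 0.537% were higher and 37.5% lower on that base. The medians of both lists carried the opposite sign there, at -0.38 for folding and -0.53 for traffic, where the median of all genes was -0.78.

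Of 13 glycolysis genes 9 were at least 2-fold lower, with Ldha (lactate dehydrogenase A) at 209.6 against 650 CPM and Gapdh at 215 against 594 CPM. Relative to the median of all genes, 4 of 13 remained at least 2-fold lower. The MHC class II list had 2 of 7 lower, with Cd74 at 382 against 812 CPM, 6 of 7 on the base of all gene UMIs and 0 of 7 relative to the median of all genes. Of all tested genes, 12.3%, 37.5% and 2.83% were lower in that order. Of 8 tested genes of zinc and metal handling, 1 was lower (Mt2) and 0 were higher. Of 11 autophagy genes, Sqstm1 and Atg7 were higher, at 121 against 55.3 and 32.2 against 10.7 CPM, and Nod2 was at 0 UMIs in the members. Of 14 dissociation and stress genes 3 were higher, among them the immediate early gene Atf3 (571 against 225 CPM), and 1 was lower. On the base of all gene UMIs, 0 autophagy and 0 stress genes were higher, and 2 of each list were lower. Relative to the median of all genes, 3 autophagy and 6 stress genes were higher and 0 lower. Of all tested genes, 1.19% were higher, 0.537% on the base of all gene UMIs and 2.57% relative to the median.

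Markers of other cell types were given over their whole lists. All 11 enteroendocrine markers were lower in Paneth barcodes, with Chgb, a granule protein, at 340 against 6516 CPM and Ghrl, Gip, Cck, Chga and Tac1 among the 10 lowest genes named. All 10 cycling markers were lower (5 of 10 relative to the median of all genes), among them Top2a at 37.9 against 251 CPM, as were 9 of 10 enterocyte markers, with Rbp2 and Fabp1 both at 22.8 CPM against 522 and 521 CPM. Reg1 and Afp were at 18.0 against 284 and 16.1 against 260 CPM. Goblet markers went the other way, with 5 of 10 higher and Zg16 lower. The goblet list summed to 6103 to 243622 CPM per Paneth barcode with a median of 21445, against a median of 925 CPM in the others. Without Spink4, Ccl6 and Ramp1 from the list above, the higher goblet genes were Tff3 (4093 against 1290 CPM) and Muc2 (1159 against 200 CPM). The sum of Tff3 rested on members with a low rule gene share: it was 19741 CPM at 10% to 20%, 3824 CPM at 20% to 40% and 1941 CPM at 40% or more, and the member median was 1401 CPM. Of the tuft markers, Cd24a was higher, as given above, whereas Avil, Ltc4s, Sh2d6 and Pou2f3 had at most 2 UMIs each, and Dclk1, Trpm5, Il25 and Rgs13 were at 0. The T cell, B or plasma cell, myeloid and neural lists summed to 5.69, 7.59, 12.3 and 5.69 CPM in Paneth barcodes, with Cd3e, Cd79a, Csf1r and Sox10 among the markers at 0. All 7 stromal markers were at 0, as were 4 of 5 endothelial and 4 of 5 red cell markers. Stem markers had 0 of 10 higher and 0 lower, with Olfm4 at 2218 against 3929 CPM. On the base of all gene UMIs 8 of 10 were lower, as were 37.5% of all tested genes. Whether such transcripts came from within these cells or from free RNA was not tested.

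Paneth barcodes varied along the share of the rule genes. In the band from 10% to 20%, with 10 barcodes, the median mitochondrial share was 8.48%. It was 5.91% in the 27 barcodes from 20% to 40% and 0.655% in the 32 barcodes of 40% or more. Median depths were 5952, 3333 and 49544 UMIs in that order. Itln1 stood at 20833, 42936 and 71240 CPM, and Mptx2 at 1694, 6561 and 14837 CPM. Retnlb ran the other way, at 4113, 70.1 and 0 CPM, as did the goblet mucin-associated gene Fcgbp at 8193, 457 and 62.5 CPM. Both of these sums rested on few barcodes, since the median per barcode was 0 CPM in all 3 bands for Retnlb and 389.8, 36.1 and 0 CPM for Fcgbp. Across 69 members, Spearman's rho with the rule gene share was 0.88 for Clps, 0.79 for Itln1, 0.51 for Mptx2 and 0.48 for Mmp7. The same barcodes and the same depth enter both sides of these values, and depth itself had a rho of 0.51, so they are descriptions.

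The range of depth was narrowed by taking the 30 members with at least 20000 UMIs, a limit chosen after the values were seen. Among them depth still had a rho of 0.31 and a Pearson r of 0.51 with the rule gene share, and rho was 0.93 for Clps and -0.73 for the mitochondrial share of UMIs outside the rule genes. Split at a mitochondrial share of 1%, also chosen afterwards, they formed 15 barcodes below it with 34.3% to 64.0% rule gene UMIs and 15 at or above it with 11.7% to 48.1%. Olfm4, a marker of crypt base stem cells, had 1, 5 and 10 UMIs as the lowest, median and highest value in the barcodes below 1%, against 0, 142 and 284 UMIs in those at or above it. The 12 highest barcodes of the second set had at least 48 UMIs each, so all but 3 stood above the whole first set. These 3 had 0, 2 and 2 Olfm4 UMIs, with Muc2 at 2237, 5637 and 8983 CPM and Mptx2 at 0, 288 and 0 CPM. Lyz1 was at 0 UMIs in the last of these and in a shallower member of 2306 UMIs. In this pair Muc2 was at 8983 and 6503 CPM, Mptx2 at 0 CPM in both and Mmp7 at 1697 and 0 CPM. Itln1 was present, at 8031 and 24012 CPM. For such members the name Paneth rests mainly on the rule genes, and a goblet identity was not tested. Between the sets split at 1%, Cd74 had 17.5 against 669 CPM, Mmp7 6679 against 3611 CPM and Itln1 80004 against 43107 CPM. After thinning to 1000 UMIs the median number of genes found was 155 below a mitochondrial share of 1% and 327 at or above it, and the rule gene shares of the sets enter these numbers. All 15 barcodes at or above 1% had at least 3 Xist UMIs and 0 had a Y-linked UMI, against 9 and 4 of the 15 below it. The part of the animal of origin, RNA quality and doublets in this split was not tested.

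**Figure D4:**
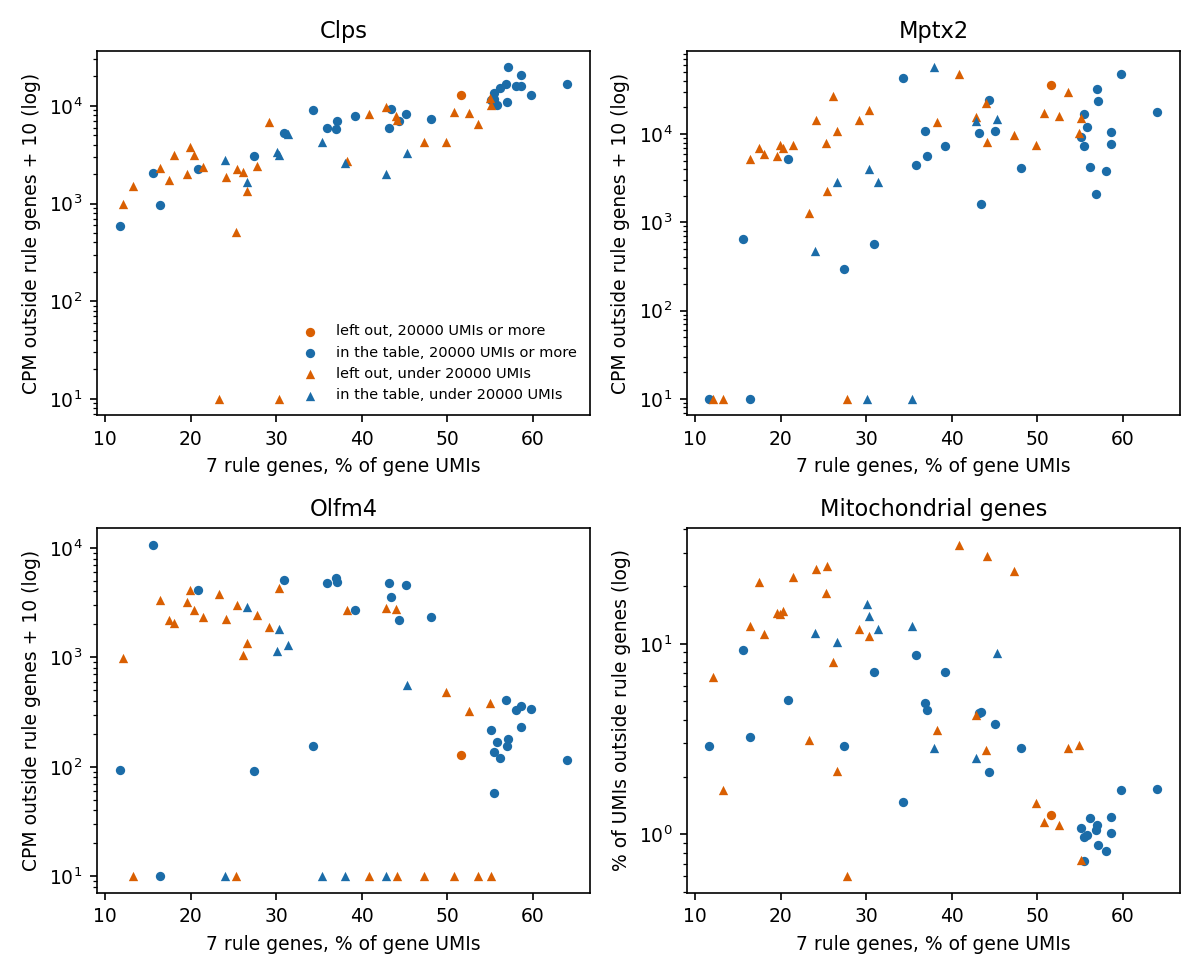
Clps, Mptx2 and Olfm4 (CPM outside the rule genes plus 10) and the mitochondrial percentage of UMIs outside the rule genes, all on log axes, against the percentage of rule gene UMIs in 69 Paneth barcodes. Orange marks barcodes left out of the count table and blue those in it, and circles mark at least 20000 UMIs. Clps follows the rule gene share with a rho of 0.88, and Olfm4 is at most 10 UMIs in the deep barcodes under 1% mitochondrial UMIs.

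The authors' table held 38 of 69 Paneth barcodes, 55.1% (42.6% to 67.1%), and 2297 of 5499 others, 41.8% (40.5% to 43.1%). Among barcodes with at most 10% mitochondrial UMIs, the shares were 66.1% of Paneth barcodes and 72.4% of others. The order of the shares also differed between depth bands. At 20000 UMIs or more the table held 29 of 30 Paneth barcodes and 1078 of 1278 others (84.4%). From 5000 to 20000 UMIs it held 2 of 10 Paneth barcodes (20%, 2.52% to 55.6%) against 846 of 1623 others (52.1%, 49.7% to 54.6%). From 2000 to 5000 UMIs it held 7 of 20 (35%) against 250 of 2056 (12.2%), and from 1000 to 2000 UMIs 0 of 9 (upper bound 33.6%) against 123 of 542 (22.7%). Over all barcodes in the table, the lowest values were 1002 UMIs, 566 genes and 40 hashtag counts, and the highest mitochondrial share was 12.5%. Of the 31 left-out Paneth barcodes, 13 lay under that gene number (41.9%, 24.5% to 60.9%), against 6 of 3202 left-out others (0.187%, 0.0688% to 0.407%). Only 8 of the 31 lay above that mitochondrial share (25.8%), against 2274 of the 3202 (71.0%), and 11 lay within all these limits, with a median of 80 hashtag counts.

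Gene numbers at equal depth include the rule genes, whose share of each Paneth barcode was set by the rule, so they are a description. Thinned to 1000 UMIs, a Paneth barcode held 106 to 516 genes with a median of 315, against 89 to 780 with a median of 592 in the others. After thinning the median was 371 genes in left-out Paneth barcodes and 298 genes in those of the table. Unthinned medians were 904 and 3707 genes, at median depths of 3285 and 52890 UMIs. The median rule gene share was 27.8% in left-out Paneth barcodes and 43.0% in those of the table. The left-out barcodes had a median of 83 hashtag counts and 5.91% mitochondrial UMIs, against 280.5 counts and 2.10% in the table. They held 9.80% of all Paneth UMIs, and 1 of them, with 52559 UMIs, held 27.6% of that part.

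Left-out Paneth barcodes were compared with those in the table. Of 1847 genes tested, 39 were at least 2-fold higher (2.11%) and 77 lower (4.17%) in the left-out ones, and the median ratio was -0.04. When each barcode had equal weight, 134 were higher and 207 lower. Likeness cannot be read from these counts, since the left-out barcodes held only 9.80% of Paneth UMIs. Itln1 stood at 53978 against 57779 CPM and Ang4 at 11580 against 11206 CPM. Mptx2 was 17763 against 10107 CPM when UMIs were summed, a log2 ratio of 0.81, and 0.20 when each barcode had equal weight. Of the 8 genes named as higher, which had 50 or more UMIs in the left-out barcodes and Poisson intervals apart, Chgb had the highest ratio, with 0, 992 and 6708 CPM as lowest, median and highest in left-out barcodes, against 36.1, 204 and 2052 CPM in the table. Its summed level was 1575 against 193 CPM, a log2 ratio of 2.96, with overlapping ranges. Tested genes with fewer UMIs in the left-out barcodes reached higher ratios, with Zg16 at 3.18 (39 UMIs against 28) and Cck at 3.16 (30 against 20). All 4 tested enteroendocrine markers were higher in the left-out barcodes, Gip at 2.29 and Chga at 1.88 among them, and the list of 11 summed to a median of 2180 CPM per barcode against 411 CPM. Chgb was also found in 71.0% of B lymphocyte barcodes without thinning, and the part of free RNA in these shallow barcodes was not tested.

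The remaining 7 genes named as higher differed less than 2-fold. Beside Mptx2, the tight junction protein Cldn3 (591 against 350.1 CPM), the lectin Reg4 (1987 against 1217 CPM), Actb (cytoskeletal actin, 2416 against 1494 CPM), Pnliprp2 (1602 against 992 CPM), and the chromatin proteins H2afz (707 against 439 CPM) and Hmgb1 (492 against 312 CPM) all had log2 ratios between 0.64 and 0.74. At the other end, Retnlb had 44.7 against 413 CPM, but it was found in 3 left-out barcodes and 6 in the table. Nrip1, a nuclear receptor corepressor, had 0 UMIs in the left-out barcodes against 51 in the table, where it was found in 21 of 38. Cdk6 (a cell cycle kinase), Dnajb9 (a chaperone of the endoplasmic reticulum) and Raly (an RNA-binding protein) each rested on 1 UMI in the left-out barcodes. Kcne3 (a potassium channel subunit) had 2 UMIs there, Acin1 (a splicing-associated protein) 3, and Clca3b (a secreted protein of the Clca family) 14, with 125 against 419 CPM.

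Transcripts of the Chga-driven reporter, listed as YFP, were examined by hashtag pair. Hashtags were paired here by number, 1 with 2 and 3 with 4, and the sources used do not tie a pair to a sort. A barcode was given to a hashtag pair when that pair had at least 10 counts and at least 3 times those of the other pair. This put 51 Paneth barcodes in tags 1 and 2, 7 in tags 3 and 4 and 11 in neither. A Paneth barcode of tags 1 and 2 held 0 to 5 YFP UMIs with a median of 0, and 21 of 51 had at least 1 (41.2%, 27.6% to 55.8%). All 7 of tags 3 and 4 had 0 YFP UMIs, with an upper bound of 12.3 CPM. The 11 of neither pair had 5 YFP UMIs, all in 1 barcode (28.05 CPM, 9.11 to 65.5). The summed level was 88.4 CPM (65.8 to 116) in tags 1 and 2. Other barcodes of tags 1 and 2 had 134 CPM and those of tags 3 and 4 had 5.23 CPM, and B lymphocyte barcodes had 4.49 CPM. Among Paneth barcodes of at least 20000 UMIs, 12 of 17 in tags 1 and 2 had YFP (70.6%, 44.0% to 89.7%), against 0 of 7 in tags 3 and 4 (0 to 41.0%). In neither pair 0 of 6 had it (0 to 45.9%), and 4 of these 6 were under a mitochondrial share of 1%. Among other barcodes of that depth the numbers were 230 of 485 (47.4%) in tags 1 and 2 and 24 of 233 (10.3%) in tags 3 and 4. Summed YFP in tags 1 and 2 at that depth was 83.8 CPM in Paneth and 138 CPM in other barcodes. Of the 17 Paneth barcodes, 10 of 11 under a mitochondrial share of 1% had YFP, against 2 of 6 at or above it. The reporter tdTomato had 17 UMIs in 13 Paneth barcodes, 16.1 against 47.8 CPM in the others, and no Paneth barcode of tags 1 and 2 had it after thinning. Thinned to 1000 UMIs, YFP was found in 2 of 51 Paneth barcodes of tags 1 and 2 and in 0 of 7 of tags 3 and 4, a level near that of 1 UMI.

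**Figure D5:**
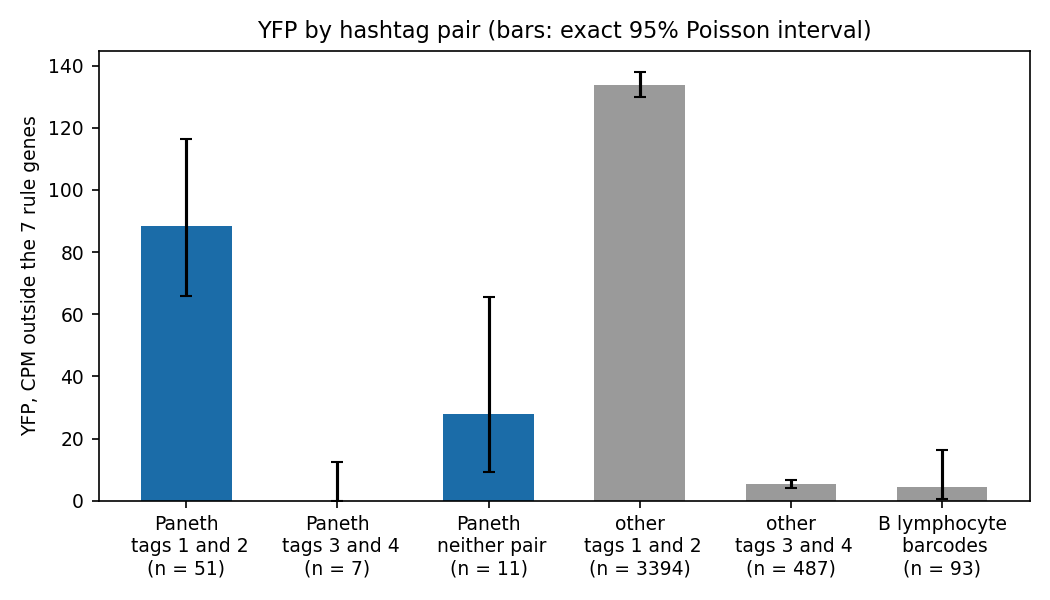
YFP in CPM outside the rule genes, with exact 95% Poisson intervals, by hashtag pair in Paneth barcodes (blue) and in other and B lymphocyte barcodes (grey). Paneth barcodes of tags 1 and 2 reach 88.4 CPM and those of tags 3 and 4 have 0 UMIs.

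The 2 tag pairs were not matched in depth or state. Of the 51 Paneth barcodes of tags 1 and 2, 24 were in the authors' table, 17 had at least 20000 UMIs and 6 of these 17 had at least 1% mitochondrial UMIs, whereas all 7 of tags 3 and 4 met all 3 conditions. Of 1537 genes tested, 65 were at least 2-fold higher in tags 1 and 2 (4.23%) and 158 lower (10.3%). Beside YFP, the highest were Trp53inp1 (a p53-induced protein, 193 against 13.4 CPM), Cldn4 (a tight junction protein, 123 against 16.7 CPM), Thbs1 (453 against 86.9 CPM) and Nr4a1 (an immediate early nuclear receptor, 160 against 26.7 CPM). The lowest were Sox4 (a progenitor transcription factor, 74.5 against 324 CPM), Gkn3 (a gastrokine, 41.6 against 170.4 CPM), Npm1 (a nucleolar protein, 387 against 1189 CPM), Clca3b (260.1 against 782 CPM) and H2-Eb1 (an MHC class II chain, 64.2 against 207 CPM). Restricted to the 6 barcodes of tags 1 and 2 with at least 20000 UMIs and 1% mitochondrial UMIs, the log2 ratios were 2.17 for YFP, 2.17 for Trp53inp1 and 2.04 for Cldn4. They were 1.04 for Thbs1, 0.58 for Nr4a1 and -1.36 for Sox4. Gkn3 (-0.72), Npm1 (-0.84), Clca3b (-0.28) and H2-Eb1 (-0.58) were under 2-fold there. YFP rested there on 7 UMIs in 2 of 6 barcodes. Its level was 34.9 CPM (14.05 to 72.0), against an upper bound of 12.3 CPM in tags 3 and 4. Trp53inp1 and Cldn4 had 4 and 5 UMIs in tags 3 and 4. The part of cell state in the wider contrast was not tested.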

How the data were processed

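The submitters' processing notes name Cell Ranger and Seurat without versions, and version 3.1.0 of the software stands in the matrix header. Raw UMI counts of 31055 genes and counts of 4 hashtags were taken from the deposited matrix, and 0 entries of the authors' count table differed from it. The notes name the build GRCh38, while gene identifiers are mouse, so no coordinates come from the files. The members and gene lists were chosen with earlier results of these data known. UMIs were summed over barcodes and compared as CPM outside the 7 rule genes, with 10 CPM added for log2 ratios, among genes with at least 50 UMIs. Named genes were the 20 highest and 10 lowest ratios among genes with 100 or more UMIs in the higher group, present in 20% or more of its barcodes, with intervals apart. For left-out barcodes they were 8 and 8, and for tag pairs 5 and 5, at 50 or more UMIs and 10% of barcodes. Each list also gave its 4 most abundant members and its extremes. Rule, mitochondrial and unnamed genes were not named this way. No doublet caller was run and no barcode was removed as a doublet. Barcodes were thinned with a fixed seed. Only the log2 ratio and the 2-fold call were tested on simulated data, with changes in abundant genes and no variation between barcodes. Alternatives changed the limits, pseudocount, base, weighting and tag rule (Python 3.11.15, numpy 2.4.6, scipy 1.17.1, pandas 2.3.3, matplotlib 3.10.9, Biopython 1.88).
Items withheld here are not reported, and B lymphocyte barcodes were defined without one gene of the planned definition, which left the values as they were.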

Additional observations from a re-analysis of the deposited data

Results flagged for a closer look

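Barcodes outside the limits also carried defensin-rich profiles. Among 4696 barcodes of at least 1000 UMIs with over 20% mitochondrial UMIs, 9 had at least 10% of their UMIs from the rule genes (0.192%, 0.0877% to 0.364%), with a median depth of 3044 UMIs and a median rule gene share of 20.2%. Among 984 barcodes under 1000 UMIs, 17 did (1.73%, 1.01% to 2.75%), with a median depth of 821 UMIs and a median share of 29.0%. The corresponding share within the limits was 69 of 5568 (1.24%, 0.965% to 1.57%). None of these 9 and 17 barcodes was in the authors' table, and no comparison used them.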

How the results depend on the processing

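All 30 genes named for Paneth against other barcodes kept their direction in the 16 alternatives run. These genes were chosen as extremes of that contrast, so a kept direction is a weak check. Leaving out members with a low rule gene share also repeated the members of another alternative. In this and the left-out contrast, changing the added CPM or the gene minimum could not turn a direction. Of 16 genes named for left-out against in-table Paneth barcodes, 11 kept their direction in the 13 alternatives run. Mptx2 and Pnliprp2 changed sign with a rule gene share of 5%, and Reg4 and Kcne3 (0.94) with barcodes thinned to 1000 UMIs, where Nrip1 had a ratio of 0. Of list members, Zg16 changed sign at 5% (1.45), Hba-a1 within the authors' table (0.13), and Ccl5 (0.057), Igkc (0.086) and Jchain (0.11) among barcodes of at least 20000 UMIs, an alternative chosen after seeing the data. The causes were not tested. No paired analysis was possible because there is 1 library and no test.

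At a rule gene share of 5%, members numbered 113, of which 38.1% were in the authors' table, against 42.02% of others, and 91 in tags 1 and 2. Genes lower in Paneth barcodes then numbered 790, and left-out barcodes had 115 higher and 45 lower. At 20% the left-out contrast had 131 lower, and with at most 10% mitochondrial UMIs 124. Without the deepest 5% of barcodes, 36.2% of members and 39.3% of others were in the table, as were 63.3% and 43.9% at 2000 UMIs and 66.1% and 72.4% at 10% mitochondrial UMIs, so that the order of the shares was turned in 3 of these alternatives. Leaving out the deepest 5% also gave 249 genes higher in Paneth barcodes, 16 higher and 47 lower in left-out ones, 1 member in tags 3 and 4 and YFP in 26.3% of tags 1 and 2. Under a 10-fold tag rule, 3 members were in tags 3 and 4.

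For Paneth against other barcodes, higher and lower genes were 344 and 4959 with 1 CPM added, 65 and 297 with 50 CPM, and 69 and 4812 on the base of all gene UMIs. Equal weights gave 262 higher, and ratios minus the median of all genes, an added alternative, 330 higher and 363 lower. For left-out against in-table barcodes they were 25 and 14 with 50 CPM, 134 and 207 with equal weights, 527 and 847 with no gene minimum, and 12 and 8 with at least 200 UMIs. Thinned barcodes, also added, gave 7 and 3, and 38 were lower on the base of all gene UMIs. Most genes of the left-out barcodes had few UMIs, and YFP at most 5 per Paneth barcode, which limits what can be compared.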
